A study of Mus musculus with 8 samples.

Results

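The genes described here are 36 genes of the mammalian cell cycle, out of 21887 protein-coding genes placed on the mouse genome. They were picked by name, and a gene counted as occupied when the centre of a peak lay inside its RefSeq span on mm10 or within 20 kb of it. By role they are 12 cyclin and cyclin-dependent kinase (CDK) genes, 6 genes of CDK inhibitors, 6 genes of checkpoint kinases and CDC25 phosphatases, 6 genes of transcription regulators and 6 genes of DNA replication and mitosis. The label under which the genes were grouped places them under the influence of the circadian clock, and the peak lists were read for how far BMAL1 and CLOCK were found at them. All 36 names matched a gene.

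Passage through the cell cycle is driven by cyclins that switch on CDKs. D-type cyclins with CDK4 or CDK6 and E-type cyclins with CDK2 phosphorylate the retinoblastoma protein and free E2F factors, which turn on genes of DNA replication. B-type cyclins with CDK1 start mitosis, held back by the kinase WEE1 and released by CDC25 phosphatases. BMAL1 and CLOCK form a heterodimer that binds the E-box CACGTG and drives the circadian clock, and Wee1 is a known target of it in mouse liver. In beta cells, which divide rarely in the adult, the inhibitors p27 (Cdkn1b) and p18 (Cdkn2c) help to restrain division in mice.

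The libraries came from Beta-TC6, a mouse insulinoma line. Such lines were derived from mice that carry the SV40 T antigen under the insulin promoter, and T antigen binds the retinoblastoma protein and p53, which limits such a line as a model of normal cell cycle control. There was 1 chromatin immunoprecipitation library for each of 6 targets: the clock factors BMAL1 and CLOCK, the beta-cell homeodomain factor PDX1, the histone marks H3K4me2 and H3K27ac, and the histone variant H2A.Z. The labels name no treatment. All cells were collected at confluence and fixed with 2 mM DSG for 30 minutes and 1% formaldehyde for 10 minutes, so no time of day, genotype or treatment is compared. The authors called peaks against 2 pooled input libraries.

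The BMAL1 library was the shallowest with 12892080 tags and the H3K4me2 library the deepest with 26678241, and without replicates no value below has an error between libraries. Lists held between 1378 peaks (CLOCK) and 41140 intervals (H3K4me2). The tag threshold for a factor peak was 13, which was also the lowest score (the authors' value per peak) in each factor list. A peak also needed at least 4 times the input and 4 times the surrounding 10000 bp, so weaker binding was not detectable. Of 10 beta-cell marker genes, 10 had H3K4me2 and 9 had H3K27ac within 1 kb of the start, against 3 and 1 of 11 marker genes of other cell types. Markers of the other cell types with H3K4me2 there were Gcg, Sst and Col1a1, of which Gcg also had H3K27ac. Cell cycle genes are not replicates of one another, and the windows of the neighbours Cdkn2a and Cdkn2b shared 1 PDX1 peak, 4 H3K4me2 intervals, 3 H3K27ac intervals and 1 H2A.Z interval.

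Promoter sequences from RefSeq (GRCm38.p6, the same coordinates as mm10) are printed for 3 members, as the 250 bases before the annotated start, written 5′ to 3′ on the strand of the gene. Cdk4 and Aurka are shown because their promoters overlapped CLOCK peaks, and Cdk1 because it held 3 kinds of cell cycle motif and no peak of BMAL1, CLOCK or PDX1. The Cdk4 sequence is chr10:127063285-127063534 on the plus strand, with CACGTG E-boxes in capitals. The Aurka sequence is chr2:172370571-172370820 on the minus strand, with the bases inside the CLOCK peak in capitals. The Cdk1 sequence is chr10:69352913-69353162 on the minus strand, with CCAAT boxes (here as ATTGG), CHR and E2F letters in capitals.
Cdk4: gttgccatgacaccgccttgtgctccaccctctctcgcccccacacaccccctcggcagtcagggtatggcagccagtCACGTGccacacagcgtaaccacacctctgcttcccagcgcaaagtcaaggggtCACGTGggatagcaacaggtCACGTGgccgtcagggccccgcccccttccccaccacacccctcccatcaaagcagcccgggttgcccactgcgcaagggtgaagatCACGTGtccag
Aurka: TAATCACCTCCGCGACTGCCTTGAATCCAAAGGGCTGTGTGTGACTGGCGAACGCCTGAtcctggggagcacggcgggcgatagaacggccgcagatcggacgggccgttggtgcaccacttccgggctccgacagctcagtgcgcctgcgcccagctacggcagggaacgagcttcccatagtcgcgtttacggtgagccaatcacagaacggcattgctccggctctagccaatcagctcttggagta
Cdk1: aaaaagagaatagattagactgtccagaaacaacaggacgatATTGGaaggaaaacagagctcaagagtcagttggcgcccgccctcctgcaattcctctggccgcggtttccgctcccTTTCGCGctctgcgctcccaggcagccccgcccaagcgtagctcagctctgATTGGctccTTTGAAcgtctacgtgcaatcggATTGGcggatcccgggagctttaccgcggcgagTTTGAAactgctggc

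BMAL1 was found at 6 of the 36 cell cycle genes, against 14.0% of all protein-coding genes, and CLOCK at 7 of the 36, against 8.23% of all. Overlapping peaks of both lay at 4 genes, against 2.0% of all. BMAL1 peaks occupied Ccne1, Cdc25b, Cdkn1b, Wee1, Cdc25c and Aurka. CLOCK peaks occupied Ccne1, Ccne2, Cdc25b, Ccnd3, Cdk4, Wee1 and Aurka. The sites with both proteins were at Ccne1, Cdc25b, Wee1 and Aurka, which encode cyclin E1, the phosphatase CDC25B, the kinase WEE1 and the mitotic kinase Aurora A. Either factor was found at 9 of the 36 genes, against 18.6% of all protein-coding genes.

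For BMAL1 the share was 16.7% of the cell cycle genes, against 12.7% of other protein-coding genes of like span and the 14.0% of all genes, so it lay near the background. The like-span share is the mean, over the 36 genes, of the share among the 500 other genes closest in span to each. CLOCK occupied 19.4% of the cell cycle genes, against 8.65% of genes of like span. At the like-span share, 3.11 of 36 genes would have CLOCK, where 7 were counted. BMAL1 peaks that overlapped CLOCK lay at 11.1% of the cell cycle genes, against 2.2% of genes of like span. Among peaks of at least 8 times the input, BMAL1 was left at 3 members, against 8.64% of all genes, and CLOCK at 4, against 4.62%. Both factors anywhere in the window, overlapping or not, were found at 4 members before this filter, against 3.69% of all genes. After it they were found at 0 of the 36 members, against 1.58% of all genes, so that count is near the background at that fold.

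**Figure D1:**
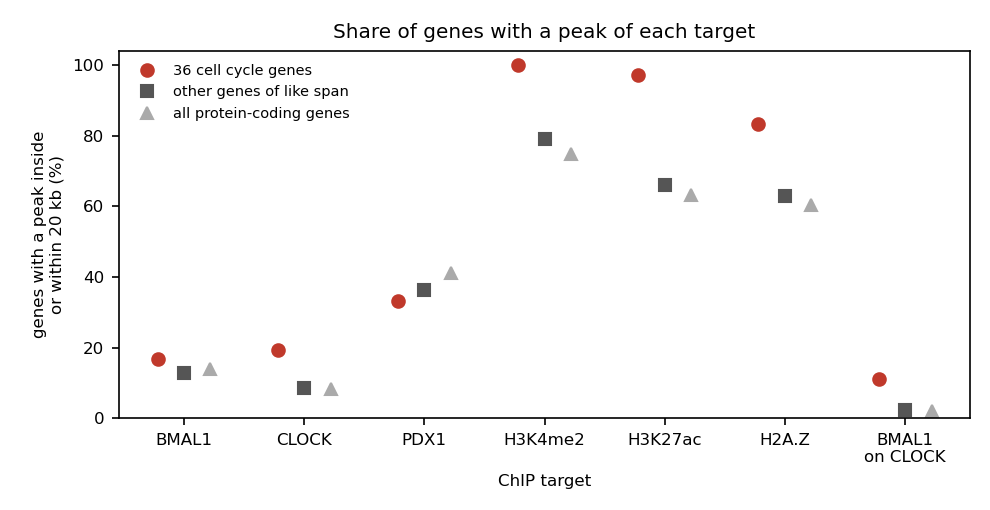
Percentage of genes with at least 1 peak centre inside or within 20 kb of the gene (vertical axis) for each ChIP target (horizontal axis), for the 36 cell cycle genes (circles), other protein-coding genes of like span (squares) and all protein-coding genes (triangles). For BMAL1 and PDX1 the 3 symbols lie close together, at 16.7%, 12.7% and 14.0% for BMAL1, while for the chromatin marks the cell cycle genes lie above both other symbols.

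Acetylated starts were common among these genes. Of the 36, 32 had H3K27ac within 1 kb of the start, against 40.0% of all genes. For genes without a start in the promoter table used here, either end of the gene was allowed. Of the 26 members with a start in it, 24 had H3K27ac there, against 40.7% of the 17492 genes with a known start. Among the 32 members, CLOCK occupied 21.9%, against 13.4% of like-span genes that also had H3K27ac at the start. BMAL1 occupied 18.8% of the 32 against 17.5%, and sites with both proteins 12.5% against 3.63%. The part of acetylation in the counts was not tested.

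The share of genes with BMAL1 also varied between chromosomes, between 2.48% of genes on chromosome X and 24.9% on chromosome 8. In the input for PDX1, H3K4me2 and H3K27ac, tags per kb of H3K4me2 interval varied between 6.14 on chromosome X and 12.6 on chromosome 19. In the input for BMAL1, CLOCK and H2A.Z, tags per kb of H2A.Z interval varied less, between 4.006 on chromosome X and 5.928 on chromosome 19. The 4 sites with both proteins were on chromosomes 2 and 7, where 5.11% and 9.11% of genes had BMAL1. When the like-span genes were the 100 closest on the same chromosome, 11.9% of them had BMAL1 and 8.19% had CLOCK. Chek1, Ccnb2 and Cdc25a lie on chromosome 9, where 2.58% of genes had BMAL1 and 3.66% had CLOCK. None of the 3 had a peak of either clock factor, which is also near the background of all genes, of which 18.6% had either.

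Scores are the authors' values per peak, for BMAL1 and CLOCK close to the number of tags, and are used within a list. At the cell cycle genes BMAL1 scores were between 13 and 35 with a median of 17, against a median of 14 in the whole list. CLOCK scores were between 14 and 63 with a median of 35, against a median of 15. Scores of 20 or more were reached by 6 of the 7 CLOCK peaks, against 26.2% of the list, and by 2 of the 7 BMAL1 peaks, against 5.77%. For scale, all 14 core clock genes had a site with both proteins, with best scores from 36 to 408 for BMAL1 and from 19 to 433 for CLOCK. No BMAL1 score at a cell cycle gene reached the lowest of those BMAL1 scores. CLOCK at Ccne1, Ccne2, Cdc25b, Ccnd3, Cdk4 and Wee1 scored above the lowest of those CLOCK scores, 19 at Arntl. Arntl had no CLOCK peak within 1 kb of its start, and the next lowest score was 41, at Bhlhe40. Of the cell cycle genes, only Ccne1 and Ccne2 had CLOCK scores above 41. The median best scores of the core clock genes were 169.5 for BMAL1 and 183 for CLOCK.

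**Figure D2:**
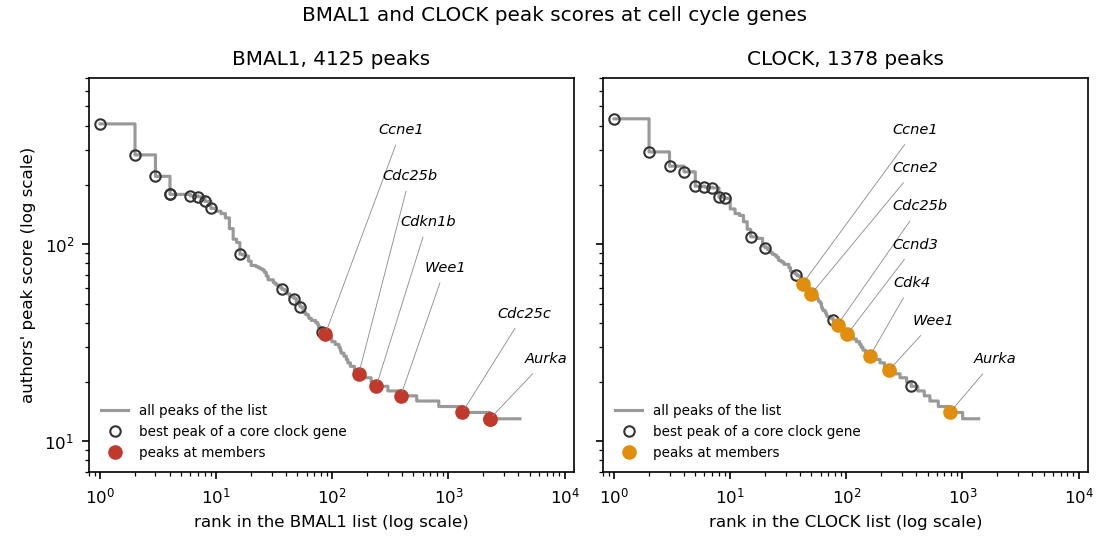
Authors' peak score (vertical axis, log scale) against rank in the list (horizontal axis, log scale) for the BMAL1 list (left) and the CLOCK list (right); the grey line is the whole list, filled points are peaks at cell cycle genes and open circles the best peak of each of 14 core clock genes. Ccne1 had the highest score of the cell cycle genes in both lists, 35 for BMAL1 and 63 for CLOCK, and Aurka the lowest, 13 and 14.

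Among the cyclin and CDK genes, Ccne1 carried the strongest site. Ccne1 encodes cyclin E1, the partner of CDK2 at entry into S phase. Its BMAL1 peak at chromosome 7, 38084965 to 38085295, had a score of 35 and rank 87 of 4125, at 7.5 times the input. The CLOCK peak over it, at 38085085 to 38085289, had a score of 63 and rank 42 of 1378, at 20.64 times the input. The site lay 12854 bp beyond the 3′ end of Ccne1 and 22360 bp from its start, inside the long non-coding RNA gene Gm30771, and the next protein-coding gene, Uri1, was 61566 bp away. It overlapped an H3K4me2 interval of 93.7 normalized tags and no H3K27ac interval. Normalized tags are scaled by the peak caller to 10000000 tags per library.

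Ccne2, which encodes cyclin E2, had CLOCK at chromosome 4, 11191138 to 11191342 (score 56, rank 50), and no BMAL1 peak within 20 kb. The CLOCK peak was inside the gene, 807 bp from an end, in an H3K27ac interval of 553.2 tags and an H3K4me2 interval of 142.4 tags. It was 5.0 times the input, near the minimum of 4. The nearest BMAL1 peak was 32689 bp from the gene, with a score of 13.

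Cdk4 encodes the kinase that D-type cyclins activate in G1. Its CLOCK peak at chromosome 10, 127063340 to 127063544, had a score of 27 and rank 159, at 13.27 times the input, with its centre 93 bp before the start. The peak overlapped an H3K27ac interval of 137.0 tags and an H3K4me2 interval of 33.4 tags. All 4 E-boxes of the printed promoter, which begin at positions -172, -118, -98 and -11 relative to the start, were inside the CLOCK peak. A promoter with 4 or more copies of CACGTG was found in 5 of 17492 genes (0.0286%), the others being Lamp1, Mfsd1, Nxf2 and Zmym6. No BMAL1 peak was listed in the Cdk4 window.

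Ccnd3, the gene of cyclin D3, had CLOCK at chromosome 17, 47502358 to 47502562, with a score of 35 and rank 102. It lay 2591 bp before the nearest Ccnd3 start but only 139 bp from the neighbouring gene Taf8, and overlapped none of the 3 chromatin lists. At 4.91 times the input, with 7.0 input tags, it was also near the minimum. Ccnd1 and Ccnd2, the other D-type cyclin genes, had no BMAL1, CLOCK or PDX1 peak, and neither did Cdk6, Cdk2, Cdk1 and Ccnb1. The promoter of Cdk6 holds a CACGTG E-box, as do those of Cdkn2c and E2f3, and these 3 genes had no clock factor peak in their windows. Since only 18.6% of all genes had either factor, this lies near the background.

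Of the inhibitor genes, Cdkn1b had a BMAL1 peak and none had CLOCK. Cdkn1b encodes p27, which blocks cyclin E with CDK2. Its BMAL1 peak at chromosome 6, 134930302 to 134930632, had a score of 19 and rank 239, at 12.28 times the input. It lay 10066 bp after the start, 4942 bp beyond the gene and inside the non-coding RNA gene Lockd, within an H3K27ac interval of 3068.5 tags. Cdkn1a, the gene of p21, had no peak of BMAL1, CLOCK or PDX1 and 141.5 tags of H3K27ac. Cdkn2c had no CLOCK peak in its window, and the nearest one was 37114 bp away with a score of 14.

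Wee1 encodes the kinase that holds CDK1 inactive. BMAL1 at chromosome 7, 110121269 to 110121599, had a score of 17 and rank 388, at 11.6 times the input. CLOCK at 110121527 to 110121731 had a score of 23 and rank 234, at 5.65 times the input. The peak centres were 625 and 430 bp outside the nearest end of the gene, and both peaks overlapped an H3K27ac interval of 430.4 tags and an H3K4me2 interval of 64.1 tags. The promoter sequence and strand of Wee1 were not used here, so this end is not identified as the start by the annotation.

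Cdc25b encodes a phosphatase that activates CDK1. BMAL1 at chromosome 2, 131204704 to 131205034, scored 22 with rank 169, at 4.78 times the input, and CLOCK at 131204701 to 131204905 scored 39 with rank 84, at 18.67 times the input. The site was 6358 bp beyond the 3′ end of Cdc25b and closer, at 5491 bp, to Ap5s1. It lay in a small H3K27ac interval of 26.8 tags and in no H3K4me2 interval. Cdc25c, the gene of a related phosphatase, had a BMAL1 peak inside the gene with a score of 14, at 8.87 times the input, in none of the 3 chromatin lists. Cdc25a, Chek1 and Chek2 had neither clock factor.

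Aurka had the lowest scores among the members in both lists. Its BMAL1 peaks, at chromosome 2, 172355951 to 172356281 and 172370728 to 172371058, both had a score of 13, the lowest in the list, at 5.46 times the input. The second lay 323 bp before the start and was overlapped by a CLOCK peak at 172370762 to 172370966, with a score of 14 and rank 779. At 25.55 times the input, with 0.5 input tags, that CLOCK peak had the highest fold of the 7. This promoter is shared with Cstf1, whose span holds the BMAL1 peak, and it carried H3K27ac (214.4 tags), H3K4me2 (63.7 tags) and H2A.Z (14.6 tags). The printed Aurka promoter has 59 bases in the CLOCK peak, in which none of the searched motifs was matched. The rest of that peak of 204 bp lay outside the printed stretch and was not searched. The other BMAL1 peak was 74 bp outside the far end of Aurka and 367 bp from Fam210b, in no chromatin interval. Mki67, Pcna, Mcm2, Mcm3 and Plk1, the other genes of replication and mitosis, had no BMAL1, CLOCK or PDX1 peak.

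The transcription regulators Myc, Rb1, E2f1, E2f2, E2f3 and Foxm1 had no BMAL1 or CLOCK peak. Since 18.6% of all genes had either factor, 0 of 6 lies near the background. By role, BMAL1 was found at 1 of the 12 cyclin and CDK genes, 1 of the 6 inhibitor genes, 3 of the 6 checkpoint genes and 1 of the 6 genes of replication and mitosis, against 14.0% of all genes. CLOCK was found at 4, 0, 2 and 1 of the same groups, against 8.23% of all genes, and with 6 to 12 genes a group no role is set apart by these counts. For the transcription regulators, the nearest peaks outside the window were BMAL1 46172 bp from E2f2 and CLOCK 48025 bp from Foxm1, each with a score of 13. Ccne2 and Ccnd3, with BMAL1 32689 and 37022 bp away, were the other members with a first BMAL1 peak between 20 and 50 kb. Inside the window the farthest site was that of Ccne1.

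**Figure D3:**
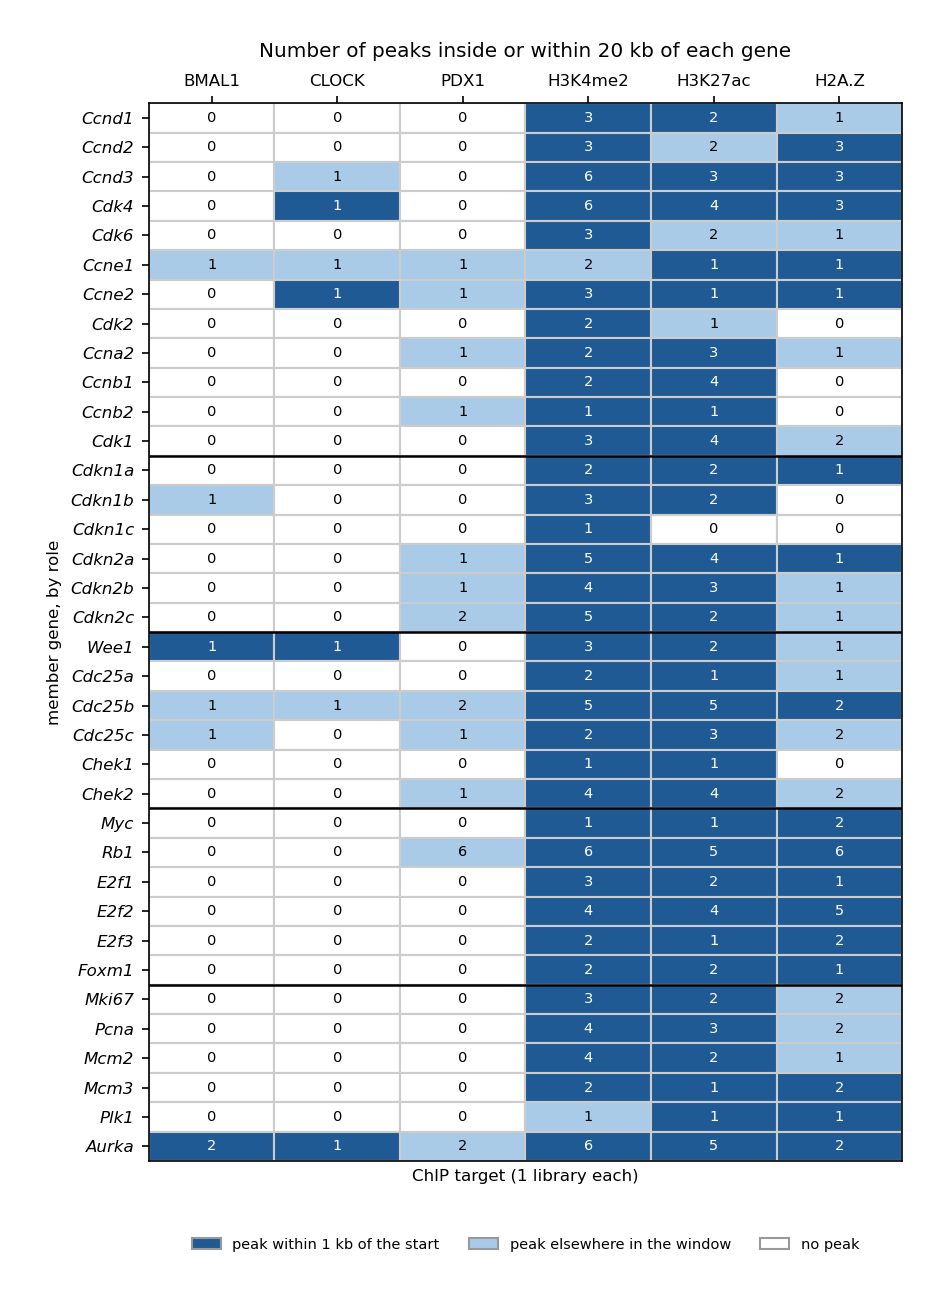
Number of peaks (printed in each cell) inside or within 20 kb of each of the 36 genes (rows, grouped by role) for the 6 targets (columns, 1 library each). Dark cells have a peak within 1 kb of the start, light cells elsewhere in the window, white cells none; H3K4me2 and H3K27ac fill almost every row, and BMAL1 and CLOCK 9 rows together.

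When the peaks were set against the other lists, no clock site of a cell cycle gene lay on PDX1. Among them 0 of 7 BMAL1 and 0 of 7 CLOCK peaks overlapped a PDX1 peak, against 5.14% and 19.4% of the whole lists. With 7 peaks of each factor, both counts of 0 lie near these shares. Of the 7 BMAL1 peaks 4 lay in H3K27ac, against 18.3% of the list, and 4 overlapped CLOCK, against 6.25%. The shares of the list cover peaks at any place, while 35 of the 36 members had H3K27ac in the window, against 63.1% of all genes. The part of this in the counts was not tested. Of the 7 CLOCK peaks 5 lay in H3K27ac, against 62.8% of the list, and 5 in H3K4me2, against 55.4%, both near the share of the list. Within 1 kb of the start lay BMAL1 at 2 genes, Wee1 and Aurka, against 2.21% of all genes, and CLOCK at 4 genes, Ccne2, Cdk4, Wee1 and Aurka, against 2.48% of all genes. For Wee1 and Ccne2 either end of the gene was allowed, as for the 10 members without a start in the promoter table used here. Among the other 26, BMAL1 was at the start of 1 and CLOCK of 2, against 2.195% and 2.595% of the 17492 genes with a known start. With counts this small, both lie near these shares.

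PDX1 occupied 12 of the 36 genes (33.3%), against 36.3% of genes of like span and 41.2% of all genes, and thus no more than the background. No PDX1 peak lay within 1 kb of a start, against 3.28% of all genes. The nearest to a start in the promoter table was 2808 bp away, at Cdkn2a. At Ccne2, whose start was not in that table, a peak lay 2200 bp from an end of the gene. Of the 19 peaks, 12 were inside the genes, 8 overlapped H3K27ac (21.1% in the list) and 6 overlapped H3K4me2 (23.6% in the list). Scores were between 13 and 55 with a median of 20, against a median of 19 in the list. PDX1 was accompanied by BMAL1 or CLOCK in the windows of 5 genes, Cdc25b, Cdc25c, Aurka, Ccne1 and Ccne2 (13.9% of the members), against 9.08% of like-span genes and 11.5% of all genes. None of the 3 factors was found at 20 members, against 51.7% of all genes. Both counts are near the background.

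The highest PDX1 score, 55, was inside Aurka at chromosome 2, 172360752 to 172360986, in an H3K27ac interval of 167.5 tags, with rank 1843 of 34883. Next, with a score of 48, came chromosome 4, 89291694 to 89291928. It was inside Cdkn2a, the gene of p16 and p19ARF, 2808 bp from a start and 19221 bp from that of Cdkn2b, the gene of p15, and counted for both. It lay in an H3K4me2 interval of 112.8 tags and in no H3K27ac interval. Rb1, the retinoblastoma gene, held 6 PDX1 peaks, all inside its span of 133094 bp, with scores from 14 to 32. The strongest was at chromosome 14, 73262337 to 73262571. Cdkn2c followed with scores of 26 and 20, the first at chromosome 4, 109654441 to 109654675. The best scores of the remaining members were 23 at Ccne2, 20 at Cdc25b, 15 at Ccne1 and Ccna2, 14 at Cdc25c and 13 at Chek2 and Ccnb2. PDX1 was at 22 members when the window was 50 kb, against 58.1% of all genes, and at 7 with the upper 50% of the list by score, against 25.4%.

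H3K4me2 was found at 36 of the 36 genes, against 74.8% of all genes and 79.0% of like-span genes. H3K27ac was found at 35, against 63.1% and 65.9%, and H2A.Z at 30, against 60.5% and 63.0%. With intervals of at least 8 times the input, H3K4me2 was at 6 of the 36 members, against 27.5% of all genes, and so below the background. At the same fold H3K27ac was at 19 members, against 39.5% of all genes, and H2A.Z at 11, against 26.5%. Cdkn1c, the imprinted gene of the inhibitor p57, was the member without H3K27ac, and its H3K4me2 interval had only 10.5 tags. H2A.Z was missing at Cdk2, Ccnb1, Ccnb2, Cdkn1b, Cdkn1c and Chek1. At the start H3K4me2 was at 34 members (94.4%), against 56.2% of all genes, H3K27ac at 32 (88.9%), against 40.0%, and H2A.Z at 17 (47.2%), against 33.5%. Either end of the gene was allowed where the promoter table gave no start. Among the 26 members with a start in it, H3K4me2 was at 24, against 56.4% of genes with a known start. H3K27ac was also at 24, against 40.7%, and H2A.Z at 12, against 33.5%. Of all members, Ccne1 and Plk1 lacked H3K4me2 there, and Cdk2, Cdk6, Ccnd2 and Cdkn1c lacked H3K27ac. At Ccnd1 the H3K27ac interval counted (13.4 tags) and the H3K4me2 interval counted (5.62 tags) lay at opposite ends of the gene. All 6 transcription regulators had all 3 chromatin features at the start, and so did 14 of the 36 genes in all, against 20.3% of like-span genes.

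The amount of H3K27ac varied widely among the members. Summed over the window it was between 0 and 5266 normalized tags with a median of 190.3, against 84.1 for like-span genes, and 29 of the 36 genes were above the median of their own like-span genes. The 5 highest were Cdkn2c (5266.5 tags), Cdkn1b (3096.8), Aurka (814.5), Cdkn2a (727.4) and Cdkn2b (657.4), of which 4 are CDK inhibitor genes. The 5 lowest were Cdkn1c (0), Ccnb2 (34.3), Mcm3 (35.7), E2f3 (64.8) and Cdc25a (75.2). Ccnb2, E2f3 and Cdc25a each had their 1 H3K27ac interval at the start, and Mcm3 within 1 kb of it. Medians by role were 692.4 tags for inhibitors, 301.9 for transcription regulators, 183.6 for checkpoint genes, 164.9 for replication and mitosis and 159.3 for cyclins and CDKs. The values for Cdkn2a and Cdkn2b share 3 intervals, and the range over inhibitors, 0 to 5266, covers that of every other role.

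**Figure D4:**
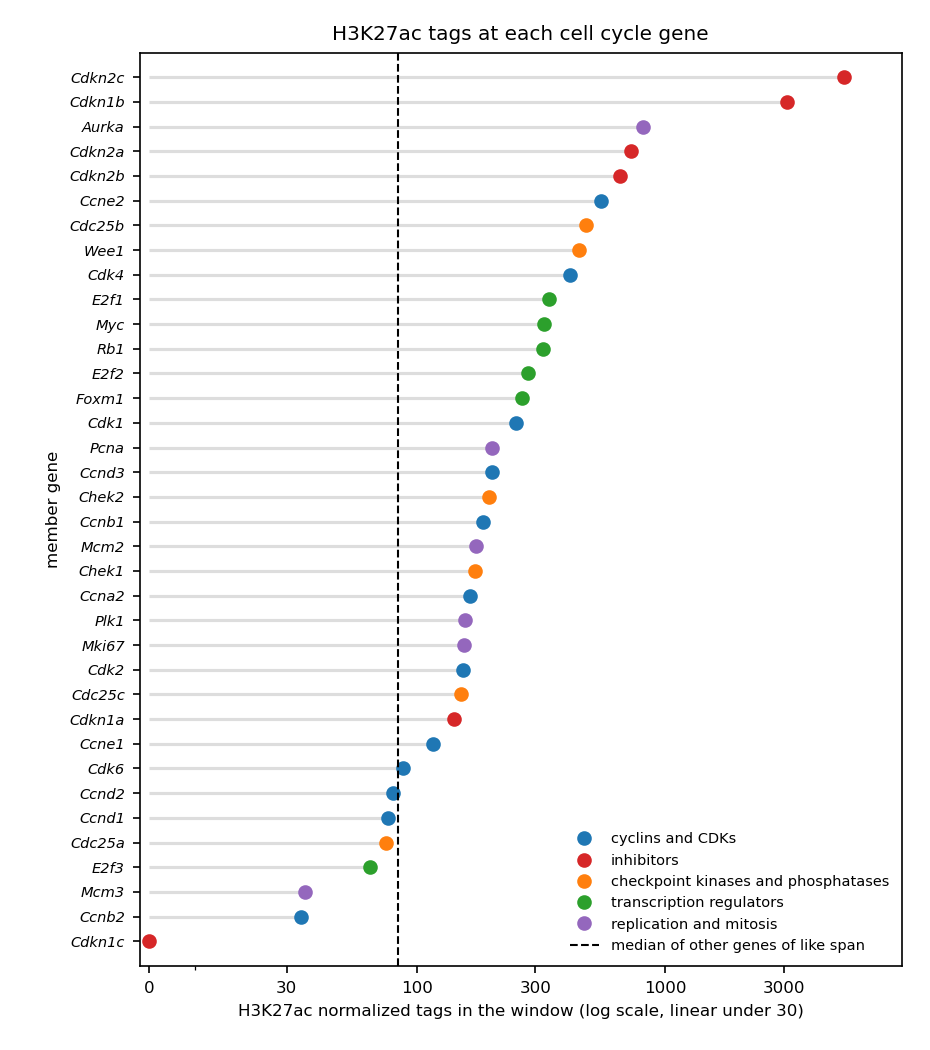
H3K27ac normalized tags summed over intervals in the window (horizontal axis, log scale above 30 and linear below) for each of the 36 genes (rows), coloured by role; the dashed line is the median of other genes of like span, 84.1. Cdkn2c and Cdkn1b stand apart at 5266.5 and 3096.8 tags, and 7 of the genes lie left of the line.

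Single broad intervals held 91.5% of the H3K27ac tags of the Cdkn2c window and 99.1% of those of the Cdkn1b window. That at Cdkn2c spanned 15919 bp at chromosome 4, 109652328 to 109668247, covered the gene, overlapped the non-coding RNA gene 9630013D21Rik and held 4820.5 tags at 32.85 times the input. It ranked 5 of 29735 intervals by tags, after intervals at Neat1 and Frmd8, Pdx1, Abcc8 and Pax6. That at Cdkn1b spanned 12389 bp at chromosome 6, 134919388 to 134931777, covered the gene and overlapped Lockd, held 3068.5 tags at 25.02 times the input and ranked 17. The same places ranked 4 and 11 of 41140 in H3K4me2, with intervals of 831.0 and 587.4 tags. Within them lay 1 PDX1 peak at Cdkn2c, with a score of 26, and 1 BMAL1 peak at Cdkn1b, with a score of 19.

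**Figure D5:**
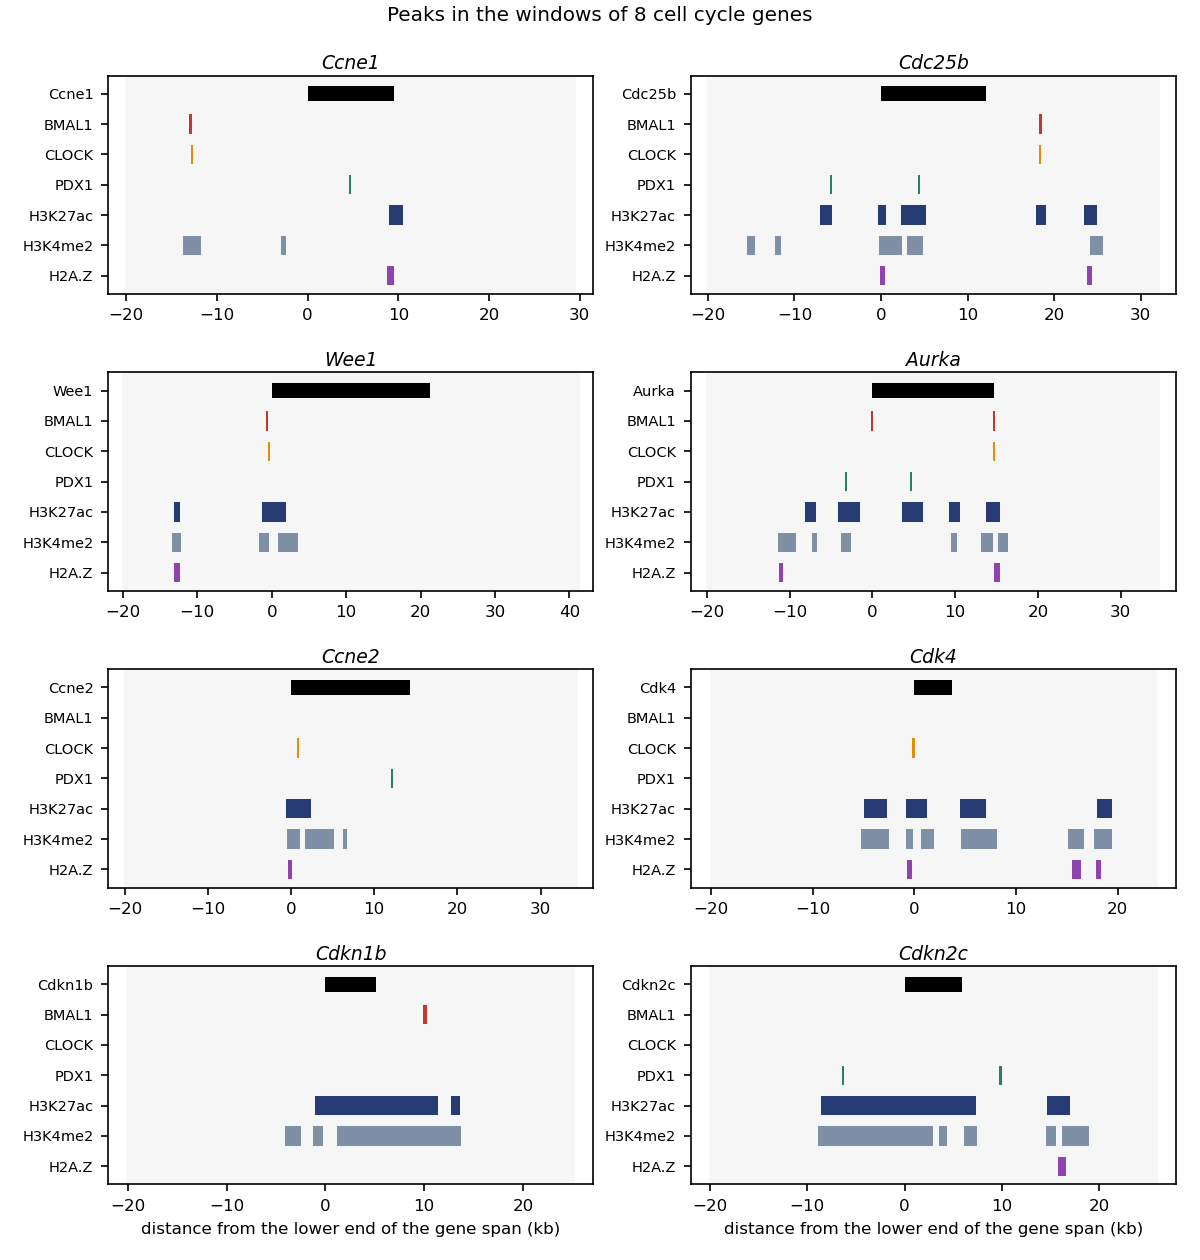
Positions of peaks of the 6 targets (coloured bars) in the windows (grey) of 8 cell cycle genes (black bar, the gene span), with distance from the lower end of the span in kb on the horizontal axis. BMAL1 and CLOCK bars coincide at Ccne1, Cdc25b, Wee1 and one end of Aurka, CLOCK stands alone at Ccne2 and Cdk4, and broad H3K27ac bars cover Cdkn1b and Cdkn2c.

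Aurka reached its sum through 5 intervals, the largest of them, with 335.1 tags, over the neighbouring gene Fam210b. The largest intervals of Cdkn2a and Cdkn2b were 337.3 tags across the upstream end of Cdkn2a and 276.2 tags across that of Cdkn2b. For H2A.Z the highest sums were at E2f2 (99.46 tags), Ccnd2 (72.92) and Chek2 (63.7), against a median of 16.2 over the members and 10.3 for like-span genes. Part of each sum lay over a neighbouring gene, 36.2 tags at Asap3 for E2f2, 43.8 at Tigar for Ccnd2 and 49.7 at Ttc28 for Chek2. E2f2, which encodes an activating E2F, had 5 H2A.Z intervals. Ccnd2, the gene of cyclin D2, combined these H2A.Z values and 335.9 tags of H3K4me2 with an H3K27ac sum of 80.4 tags, all of it over Tigar.

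The promoter table held 26 of the 36 genes. CCAAT boxes were found in the promoters of 19 of them (73.1%), against 42.3% of 17492 genes. The E2F letters TTTCGCG or TTTGGCG were found in 7 (26.9%), against 3.38%, namely Cdc25a, Cdk1, Cdkn2c, Chek1, E2f2, E2f3 and Mcm3. The CHR letters TTTGAA or TTCGAA were found in 10 (38.5%), against 20.2%, among them the mitotic genes Cdk1, Ccnb2, Plk1 and Aurka. CACGTG was found in 4 (15.4%), against 8.91%, the related CACGTT in 1, Ccnb2 (3.85%, against 5.49%), and the homeodomain letters TAATTA in 1, Cdkn2c (3.85%, against 5.37%). Letters were searched on both strands from 250 bases before to 50 after the start, and a match is a description only. Promoters of the members had a median GC content of 63.8%, against 57.3% for all genes.

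A second list of 56 cell cycle genes, none of them among the 36, gave the wider pathway. BMAL1 was found at 12 of them (21.4%), against 14.0% of all genes, CLOCK at 4 (7.14%), against 8.23%, and sites with both proteins at 0, against 2.0%. PDX1 was found at 28 (50.0%), against 41.2% of all genes, and at the start of 3, against 3.28%. The BMAL1 scores there were between 13 and 18, and CLOCK was found at Men1 (13), Lin54 (15), Tfdp1 (18) and E2f4 (26). H3K27ac was found at 53 of these 56 genes, against 63.1% of all genes, and 43 had it at the start, against 40.0%. Both lists were chosen by name with earlier results known, and their difference was not tested.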

How the data were processed

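Chromatin immunoprecipitation and sequencing was measured in Beta-TC6 cells, 1 library per target. Per the submitters' processing notes, Bowtie 1.1.1 and HOMER were used with mm10. Peaks were called per library with HOMER findPeaks against pooled input, per the file headers. The deposited normalized tag count is a signal scaled to 10000000 tags. The deposited tag and control tag counts are signals on another scale, with 13.0 tags against 10.1 normalized tags at the Cdc25c BMAL1 peak. The deposited score ranks peaks within a list, and the deposited fold over input is a ratio. For H2A.Z the sample description names another input than the header, and the header was followed. The deepest library, H3K4me2, had 26678241 tags, followed by PDX1 with 19568242, H2A.Z with 18513695, CLOCK with 17898856, H3K27ac with 13430083 and BMAL1 with 12892080.

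Gene spans and promoters came from RefSeq tables for GRCm38.p6. Starts came from the promoter table, or both gene ends where it had none. A histone value is the sum of normalized tags of intervals with their centre in the window, and an overlap needed 1 shared bp. Named genes were every member with BMAL1 or CLOCK, the 5 with the highest PDX1 scores and the 5 highest and 5 lowest by H3K27ac. The members and gene lists were chosen with earlier results of these data known. Shares are counts of genes, and no test was run, since there was 1 library per target. The counting of peaks was tested on simulated data. Tables were handled with pandas 2.3.3 and NumPy 2.4.6 in Python 3.11.15, with SciPy 1.17.1, and plots with matplotlib 3.10.9.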

Additional observations from a re-analysis of the deposited data

How the results depend on the processing

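No paired analysis was possible because each target had 1 library, and for the same reason no library could be left out. The filter at 8 times the input moved the counts most. It left 3 genes for BMAL1, 4 for CLOCK, 11 for H2A.Z, 19 for H3K27ac and 6 for H3K4me2. PDX1 was at 10 members, against 33.8% of all genes, and thus no more than the background. CLOCK was then at Cdk4, Cdc25b, Aurka and Ccne1, and BMAL1 at Cdc25c, Cdkn1b and Wee1. At that fold 0 members had both factors in the window, overlapping or not, against 1.58% of all genes. Of all genes, 8.64% had BMAL1 and 4.62% had CLOCK. PDX1 was found at 22 genes within 50 kb and at 7 with the upper 50% of the list by score. With starts from the promoter table only, BMAL1 was at the start of 1 gene and CLOCK of 2, against 2.195% and 2.595% of genes with a known start. Among like-span genes on the same chromosome, the BMAL1 share was 11.86% and the PDX1 share 35.19%. Among like-span genes with H3K27ac at the start, H3K27ac was by construction found at 100%, H3K4me2 at 98.25%, H2A.Z at 78.91%, PDX1 at 43.19%, BMAL1 at 17.51% and CLOCK at 13.44%. Per kb of window, the median H3K27ac value over the members was 3.197, against 1.278 for like-span genes. BMAL1 was at 5 members within 10 kb (11.1% of all genes), 9 within 50 kb (21.3%), 5 with the nearest gene only (9.51%) and 5 with the upper 50% by score (8.97%). CLOCK was at 6 (6.33%), 9 (13.1%), 5 (4.73%) and 6 (4.49%) under the same settings, and these counts were within 1.5 times the reported ones. The comparisons with same-chromosome genes, with genes with H3K27ac at the start and with starts from the promoter table only were chosen after seeing the data. A list holds sites above a threshold, so weaker binding was not detectable.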
